A study of Mus musculus with 59 samples.

Results

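Genes of homologous recombination, the Fanconi anemia pathway and the DNA damage checkpoint kinases were followed in lung, liver and forestomach of mice exposed to benzo(b)fluoranthene (BbF), a polycyclic aromatic hydrocarbon. The set was a list of 35 gene symbols, matched to array probes through the accession that the array design gives each probe. Of these, 34 had a probe, among 20018 genes with a RefSeq symbol on the array. No probe was matched to Rad51c, which is not analysed here. Adult male Muta™Mouse, a transgenic line made for mutation assays, received olive oil alone (vehicle) or 25 (low), 50 (medium) or 100 (high) mg/kg-bw/day BbF in olive oil by gavage for 28 days, and tissues were taken 72 h after the last dose. There were 5 mice a group and 59 arrays, because lung of the low-dose group has only 4. Mice keep their number across tissues, with 1 to 5 given vehicle, 6 to 10 the low dose, 11 to 15 the medium dose and 16 to 20 the high dose. The labels disagree on the compound, since the titles and treatment notes name BbF whereas an exposure label names benz(a)anthracene; the doses are those of BbF. Forestomach RNA came from a random slice of the organ, so each tissue is a mixture of cell types, and fewer cells of a type cannot be told apart from less RNA per cell.

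Homologous recombination repairs broken chromosomes and collapsed replication forks by copying the intact sister chromatid. It is largely confined to cells that are replicating or have replicated their DNA, and many of its genes are transcribed most in those cells. The Fanconi pathway detects crosslinks that stop a fork: a core complex attaches ubiquitin to the FANCD2 and FANCI pair, which recruits nucleases, and recombination then rebuilds the fork. ATM and ATR are the kinases that sense broken ends and exposed single-stranded DNA, and they signal to CHEK2 and CHEK1, which hold the cell cycle. Diol epoxides made from polycyclic aromatic hydrocarbons attach to DNA bases and can block replication.

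Each array set tissue RNA in Cy5 against a universal mouse reference in Cy3, RNA pooled from cell lines, and no dyes were swapped. Every level given here is log2(sample/reference), so a level of a gene is comparable between mice and tissues but not with that of another gene. A change is a difference of such levels, given with its standard error (SE), and was called when the limma fit over all probes gave an adjusted p of 0.05 or less and the change was 1.5-fold or more (0.585 on the log2 scale). Between 44.8 and 68.8% of probes were well above background per lung array and between 39.6 and 52.0% per forestomach array. The 68.8% was a single array, medium-dose mouse 13, and the other lung arrays reached at most 52.69%. In liver, 8 arrays of the third slide had 10.75 to 12.93%, against 37.06 to 46.16% on the other 12, and the spread of log2 ratios over genes was narrower there (SD 0.769 to 0.854, against 1.45 to 1.5). On that slide 31 of the 34 genes sat closer to 0, and only 3 were well above background on any of its arrays. Liver values are therefore given with and without it, except where the high-dose change is compared between tissues. Markers of the labelled tissue separated it from the other tissues on every array for 3 of 4 lung, 4 of 4 liver and 3 of 4 forestomach genes. The exceptions were Cldn18 for lung and Krt4 for forestomach.

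How far a gene could be measured differed within the set. Bard1 and Fancb were well above background on all 19 lung and all 20 forestomach arrays. Brca1, the ubiquitin ligase that starts end resection with BARD1, was well above background in Cy5 on 0 lung, 0 liver and 1 forestomach arrays, although the reference channel showed it on 54 of 59. Chek1, the kinase below ATR, reached that level on 0, 1 and 1 arrays, and Fancd2, the ubiquitinated Fanconi protein, on 1, 0 and 0. Palb2, which links BRCA1 to BRCA2, reached it on 1, 0 and 5 arrays. For these 4 genes, the absence of a call says little about their transcripts. Brip1 reached that level on 5 lung, 6 liver and 3 forestomach arrays. In liver without the third slide, Rad54l, Fanci, Exo1 and Eme1 reached it on 1 array each, Rad54b and Chek2 on 2 and Fancg on 3. The absence of a call says little there too.

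Promoter sequences are shown for 4 genes whose lung values are described below: Bard1, called higher at the low dose, Fancb, called lower at the high dose, and Brca2 and Fanci, which were not called. They are the 250 bases before the transcription start in RefSeq (GRCm38.p6), read 5′ to 3′ on the gene's strand. Capitals mark matches, on either strand, to an E2F site (TTTCGCGC, TTTGGCGC or TTTCCCGC), the cell cycle homology element TTTGAA (CHR), the core of the dioxin response element GCGTG, which the aryl hydrocarbon receptor (AhR) binds, or the CCAAT box. The stretches lie at chr1:71102973-71103222 (minus strand), chr5:150522371-150522620 (plus strand), chr7:79392088-79392337 (plus strand) and chrX:164980342-164980591 (plus strand).
Bard1: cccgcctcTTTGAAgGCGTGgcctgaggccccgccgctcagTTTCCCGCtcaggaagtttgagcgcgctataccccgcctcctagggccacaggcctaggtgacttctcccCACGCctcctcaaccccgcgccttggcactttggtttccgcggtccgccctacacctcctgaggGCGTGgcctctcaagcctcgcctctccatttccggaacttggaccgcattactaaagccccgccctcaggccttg
Brca2: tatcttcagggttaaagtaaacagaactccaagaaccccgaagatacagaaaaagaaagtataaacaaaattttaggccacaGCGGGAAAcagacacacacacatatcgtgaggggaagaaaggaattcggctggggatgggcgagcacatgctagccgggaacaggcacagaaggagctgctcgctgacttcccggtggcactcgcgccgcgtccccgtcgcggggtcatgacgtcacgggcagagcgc
Fanci: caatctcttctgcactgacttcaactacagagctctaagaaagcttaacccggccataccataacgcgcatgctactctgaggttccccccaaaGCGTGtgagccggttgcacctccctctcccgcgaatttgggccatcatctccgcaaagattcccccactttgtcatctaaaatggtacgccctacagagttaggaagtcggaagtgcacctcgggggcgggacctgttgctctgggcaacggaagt
Fancb: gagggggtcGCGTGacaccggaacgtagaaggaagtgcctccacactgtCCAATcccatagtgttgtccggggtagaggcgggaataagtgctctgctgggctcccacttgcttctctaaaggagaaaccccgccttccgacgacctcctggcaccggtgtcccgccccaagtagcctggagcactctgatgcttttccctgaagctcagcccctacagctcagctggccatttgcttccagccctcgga

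The E2F letters were found at -209 from the start in Bard1 and at -168 in Brca2, and not in the Fanci or Fancb stretch. Bard1 was the only one of the members' promoters with the CHR letters, at -242. The table held 30 promoters for 27 of the 35 genes, and none for Exo1. The E2F letters stood in 4 of the 30 (13.3%, in Bard1, Brca2, Chek2 and Fancg), against 1.53% of 32851 promoters of the same length. The AhR core stood in 13 (43.3%, against 28.2%), the CCAAT box in 18 (60%, against 33.8%) and CHR in 1 (3.33%, against 16%). The members' promoters were also richer in G and C, with a median of 57.4% against 52.4%. Matches overlapped each other in 1 promoter, that of Rad51c. These are matches of letters and say nothing about which factor was bound.

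In lung, most of the genes lay slightly above vehicle at the low dose, and fewer did at the high dose. At the low dose 28 of 34 were higher than vehicle, with a median change of 0.19, against a median of 0.01 over all genes. The median was 0.11 (25 higher) at the medium and 0.08 (19 higher) at the high dose. Over all genes 53.9, 51.2 and 53.3% were higher at the low, medium and high dose. Bard1 at the low dose and Fancb at the high dose were the only calls, 1 of 34 each, and no gene was called at the medium dose. The calls over all genes came to 0.674%, 0.904% and 2.61% at the same 3 doses, and with 34 genes a single call does not set the group apart from that background. An unadjusted p under 0.05 was reached by 16, 11 and 6 of the 34 genes (47.1, 32.4 and 17.6%), against 12.2, 19.4 and 25.6% of all genes. The list was chosen with earlier results of these data known, and its genes were measured in the same mice. These shares are therefore a description and no test of the group.

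**Figure D1:**
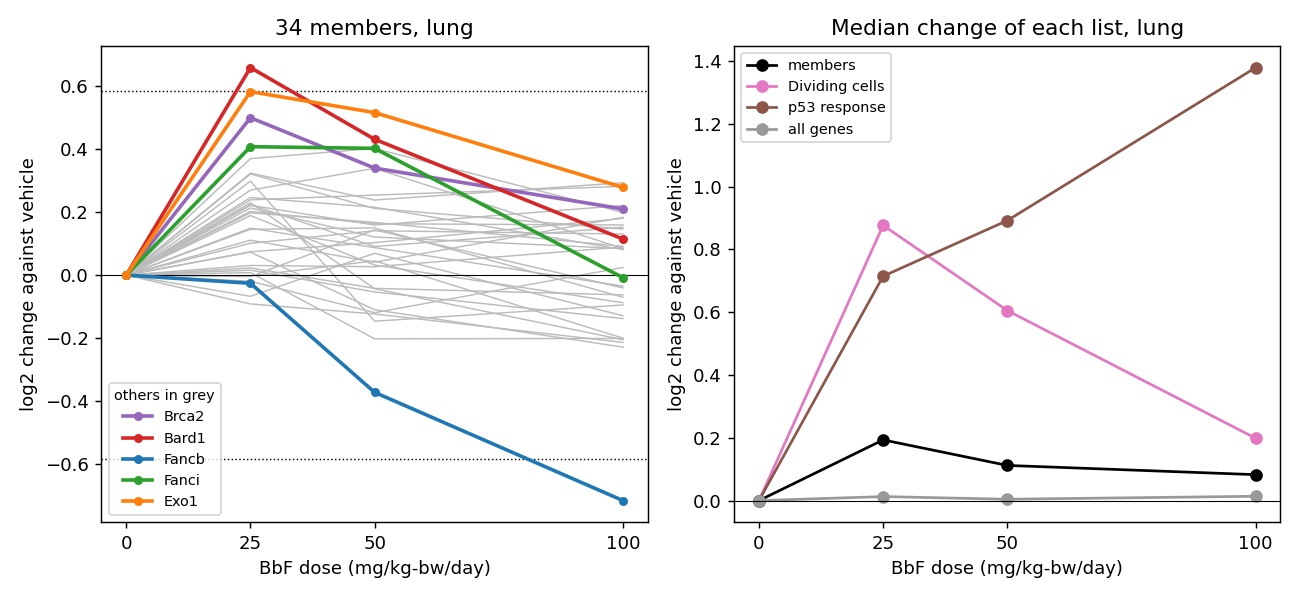
Lung change from vehicle (log2) against dose (mg/kg-bw/day). On the left each line is 1 of the 34 genes, 5 are coloured, and dotted lines mark 1.5-fold. Bard1 is highest at the low dose, with 0.66, and Fancb falls to -0.72 at the high dose. On the right are medians of the 34 genes, of 12 genes of dividing cells, of 12 genes of the p53 response and of all genes. The medians of the 34 genes and of the dividing cell genes are highest at the low dose, and that of the p53 genes is highest at the high dose.

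Among BRCA1 and its partners, Bard1, the ring-finger partner that stabilizes BRCA1, rose at the low dose. Its levels in the vehicle mice were -2.46, -2.84, -2.46, -2.56 and -2.34. In the low-dose mice they were -1.998, -1.765, -1.87 and -1.86, in the medium-dose mice -2.15, -1.83, -1.996, -2.21 and -2.31, and in the high-dose mice -2.58, -2.54, -1.89, -2.43 and -2.64. All low- and medium-dose mice lay above all vehicle mice, while the high-dose mice overlapped them except for mouse 18. The change was 0.66 ± 0.13 (SE, n = 4 and 5, limma adjusted p = 0.0167) at the low dose, 0.43 ± 0.12 (adjusted p = 0.0821) at the medium and 0.11 ± 0.12 (adjusted p = 0.712) at the high dose. Within the 3 lung slides the low dose minus vehicle was 0.65, 0.69 and 0.48, with 1 or 2 mice on each side. The call is narrow: without vehicle mouse 2 the adjusted p was 0.0531, and without low-dose mouse 8, 9 or 10 it was 0.0687, 0.05 (just past the threshold) or 0.057. It also rests on 1 of 3 probes, because a second Bard1 probe, well above background on all 19 lung arrays, changed by -0.05 ± 0.09 (adjusted p = 0.94), and the remaining, dimmer one by -0.10 ± 0.13.

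Brca2, the breast cancer gene that acts after end resection, showed a similar order of doses without a call, and was chosen for description after its values were seen. Its levels were -2.81, -2.85, -2.42, -2.56 and -2.79 in the vehicle mice. They were -2.40, -2.12, -2.12 and -2.11 at the low dose, all above the vehicle mice, and -2.45, -2.35, -2.21, -2.50 and -2.88 at the high dose, which overlapped them. The change was 0.50 ± 0.12 at the low dose (adjusted p = 0.0631) and 0.21 ± 0.11 at the high dose (adjusted p = 0.35). Brca1 at the high dose was within the range of its vehicle mice or slightly below, with -0.73, -0.47, -0.47, -0.73 and -0.53 against -0.57, -0.69, -0.41, -0.56 and -0.05, a change of -0.13 ± 0.10 (adjusted p = 0.542) near background.

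Of the end resection genes, Exo1, the exonuclease that lengthens resected ends, came closest to a call and was likewise chosen after its values were seen. It was well above background on 15 of the 19 lung arrays, and its level was -3.66, -3.54, -3.41, -3.24 and -3.90 in vehicle lungs. The low-dose mice had -2.97, -2.84, -2.88 and -3.17 and the medium-dose mice -3.15, -2.87, -2.88, -3.12 and -3.14, and all 9 lay above every vehicle mouse. The high-dose mice had -3.31, -3.33, -2.83, -3.28 and -3.62 and overlapped vehicle. The changes were 0.58 ± 0.14 (adjusted p = 0.0501), 0.52 ± 0.13 (adjusted p = 0.0405, but under 1.5-fold) and 0.28 ± 0.13 (adjusted p = 0.243). With the slide as a block the medium-dose change was 0.64 (adjusted p = 0.00039) and called. Without vehicle mouse 4 Exo1 was called at both the low and the medium dose. Rad50, the coiled-coil subunit that tethers broken ends in the MRE11 complex, had -0.63, -0.58, -0.84, -0.77 and -0.80 in vehicle and -0.59, -0.30, -0.26, -0.64 and -0.42 in high-dose lungs. These groups overlapped, with a change of 0.28 ± 0.10 (adjusted p = 0.103), and a second Rad50 probe changed by -0.01.

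**Figure D2:**
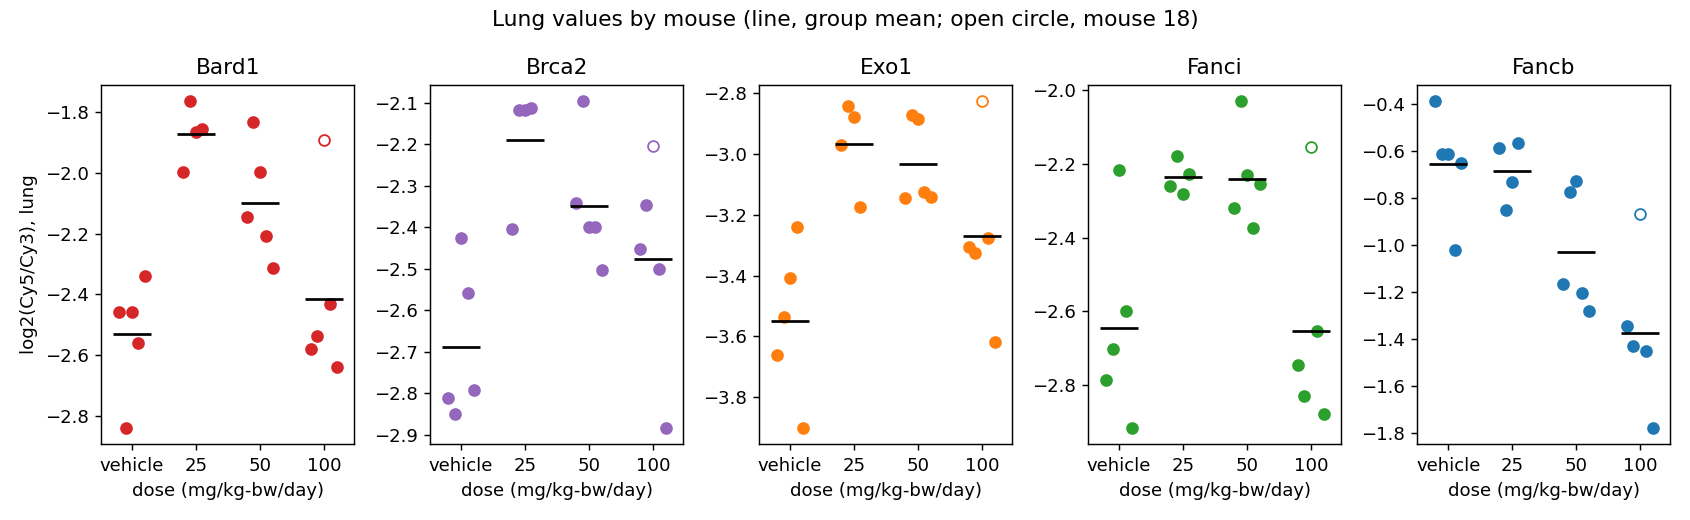
Lung levels, log2(sample/reference), of Bard1, Brca2, Exo1, Fanci and Fancb in each mouse by dose group. Points are mice, lines are group means and the open circle is high-dose mouse 18. For Bard1, Brca2 and Exo1 every low-dose mouse lies above every vehicle mouse, and Fancb falls toward the high dose, with mouse 18 highest of its group at -0.87.

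Among the Fanconi core genes, Fancb fell with dose. FANCB is an X-linked subunit that holds the catalytic part of the core complex together. Its levels were -0.39, -0.61, -0.61, -1.02 and -0.65 in vehicle mice and -0.59, -0.85, -0.73 and -0.56 at the low dose. The medium-dose mice had -1.16, -0.78, -0.73, -1.20 and -1.28, and the high-dose mice had -1.34, -1.43, -0.87, -1.45 and -1.78. Of the high-dose mice 4 lay below every vehicle mouse, and mouse 18 lay within the vehicle range. The change from vehicle was -0.03 ± 0.15 (adjusted p = 0.987), -0.37 ± 0.14 (adjusted p = 0.222) and -0.72 ± 0.14 (adjusted p = 0.00405) at the 3 doses. The linear trend over dose, scaled to the high dose, was -0.76 ± 0.14 (adjusted p = 0.00155), the only member called among the 2.22% of all genes called for trend. Within slides the high dose minus vehicle was -0.89, -0.05 and -0.96, where the value near 0 rests on mouse 18 alone. When each array was centred on its median in place of loess, the fall was -0.33 (adjusted p = 0.328) and not called. Fancb had a single probe.

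The other core and anchor genes were not called at any dose in lung. Fance, which bridges the core complex to FANCD2, changed by 0.20 ± 0.07 at the low dose (adjusted p = 0.255), with all 4 mice above all vehicle mice, but a second probe, well above background on all 19 lung arrays, changed by -0.12 ± 0.08. Fanca, the scaffold most often mutated in Fanconi anemia, changed by 0.40 ± 0.16 at the medium dose (adjusted p = 0.228), again above vehicle in 5 of 5 mice. Fanci, the partner of FANCD2 in the ubiquitinated pair, chosen after its values were seen, had -2.79, -2.70, -2.22, -2.60 and -2.92 in vehicle, -2.26, -2.18, -2.28 and -2.23 at the low dose and -2.75, -2.83, -2.15, -2.65 and -2.88 at the high dose. Its low-dose mice sat at the upper end of the vehicle range, and the change was 0.41 ± 0.13 there (adjusted p = 0.249) and -0.01 ± 0.13 at the high dose (adjusted p = 0.986).

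Among Rad51b, Rad51d, Xrcc2 and Xrcc3, which assist strand exchange, Rad51d had the largest high-dose change. It was at 0.49, 0.31, 0.10, 0.13 and 0.23 in vehicle and 0.38, 0.70, 0.58, 0.59 and 0.48 in high-dose lungs, with 3 of the 5 high-dose mice above all vehicle mice. The change was 0.29 ± 0.09 (adjusted p = 0.0501), under 1.5-fold, and a second probe gave 0.00. Slx4, the scaffold for nucleases that cut joined DNA molecules, changed by 0.22 ± 0.07 at the high dose (adjusted p = 0.0797). Rad54l and Rad54b, translocases that help strand exchange, changed by 0.27 ± 0.12 and 0.23 ± 0.13 at the low dose, and by 0.08 ± 0.11 and -0.21 ± 0.12 at the high dose, none called.

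None of the 4 checkpoint kinases was called in lung. At the high dose Atm was at -0.63, -0.38, -0.35, -0.29 and -0.46, against -0.56, -0.59, -0.54, -0.61 and -0.47 in vehicle, and 4 of the 5 exceeded the highest vehicle mouse. Its change was 0.13 ± 0.07 (adjusted p = 0.378), and that of a second probe, well above background on all 19 arrays, was 0.005 ± 0.059. Atr was at -0.92, -0.75, -0.74, -1.08 and -1.13 against -0.89, -1.17, -1.23, -0.93 and -1.17, which overlapped, with a change of 0.15 ± 0.09 (adjusted p = 0.42). Chek2 at -1.71, -1.34, -1.27, -0.99 and -1.23 spanned its vehicle range of -1.50 to -1.12, and its change was -0.04 ± 0.12 (adjusted p = 0.912). Chek1 changed by 0.02 ± 0.09 (adjusted p = 0.932), near background. The 95% intervals of all 4 kinases lay within 1.5-fold either way at each lung dose. At the high dose this held for 33 of the 34 genes, all but Fancb, against 84.8% of all genes. Brca1, Chek1, Fancd2 and Palb2 were near background, where a narrow interval says little about the transcript. Brip1 and Eme1 were well above background on only 5 and 7 lung arrays.

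**Figure D3:**
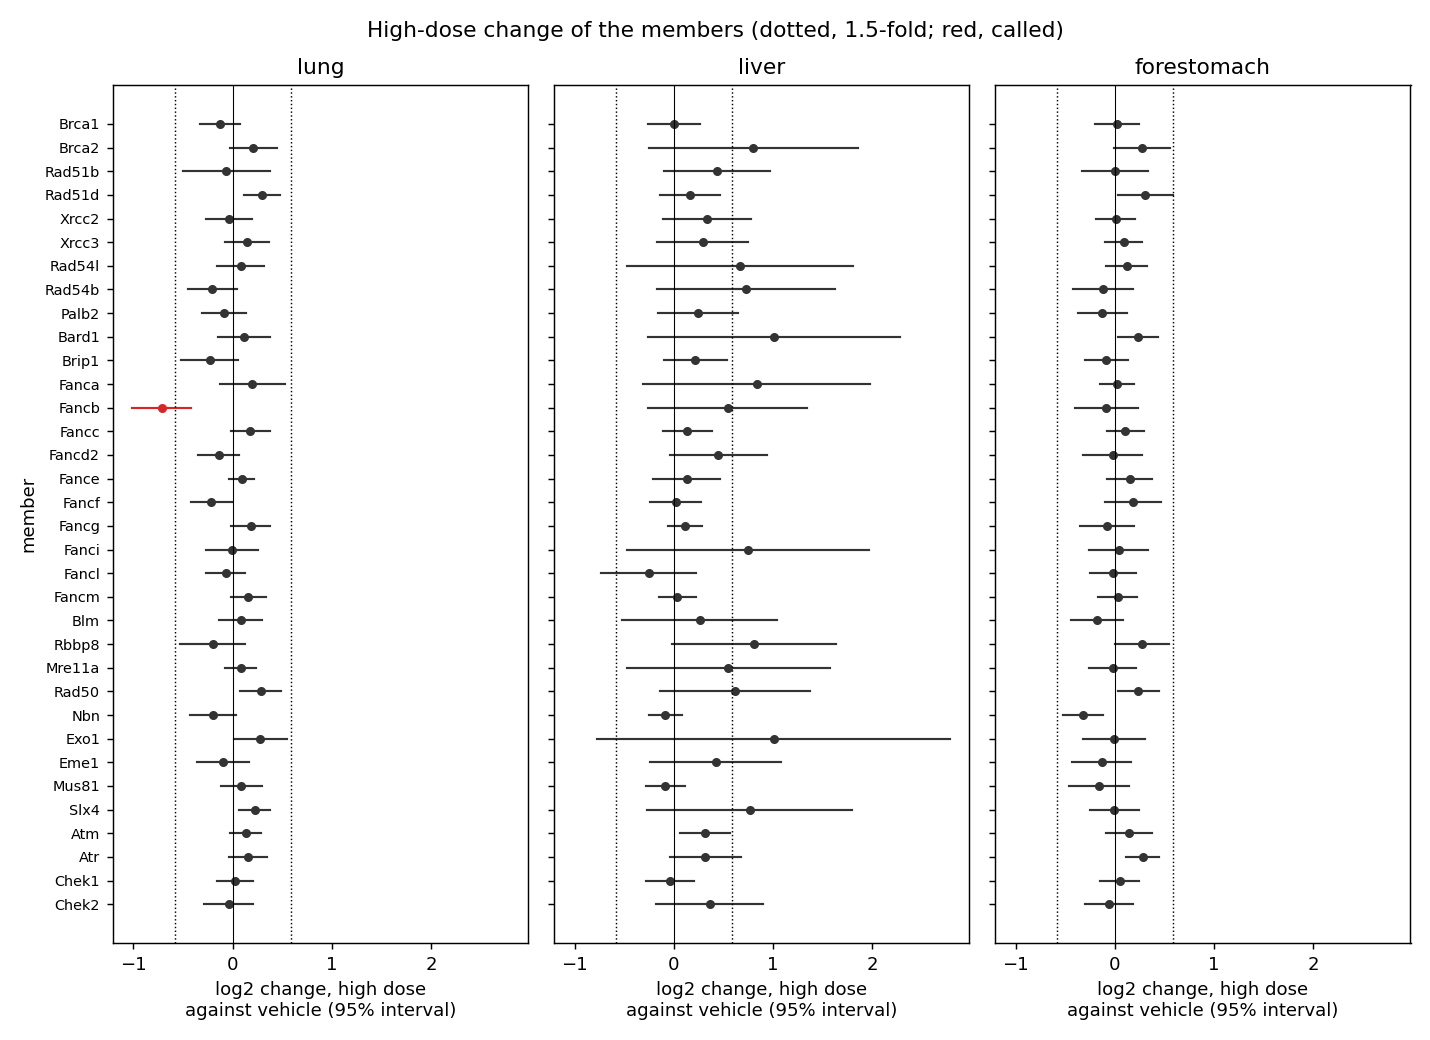
Change at the high dose (log2) with its 95% interval for each of the 34 genes in lung, liver and forestomach. Dotted lines mark 1.5-fold and red marks a call. Fancb in lung is the only call. The intervals are widest in liver, where 12 of 34 lay within 1.5-fold, against 33 in lung and 33 in forestomach. Over all genes the shares were 61.6% in liver, 84.8% in lung and 81.4% in forestomach.

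The high and low doses were also compared directly in lung, a comparison added after the lung values were seen. Of the 34 genes 28 were lower at the high than at the low dose, with a median of -0.16. Over all genes the median was 0.003, and 50.9% were higher at the high dose. Fancb was called (-0.69 ± 0.15, adjusted p = 0.0349), against 0.949% of all genes, and Bard1 was not (-0.54 ± 0.13, adjusted p = 0.0583). The Fancb call was lost when low-dose mouse 6, 8, 9 or 10 or high-dose mouse 16, 17, 19 or 20 was left out. Mouse 18, the only high-dose lung array on the second slide, differed from the rest of the high-dose group. Its mean level over the 34 genes was -0.99, while the other high-dose mice ranged from -1.35 to -1.19. The vehicle mice on that slide, 3 and 4, were also the highest of their group (-1.134 and -1.164, others -1.315 to -1.224). The part of the slide in the level of mouse 18 was not tested. Without mouse 18 the median high-dose change of the 34 genes was 0.0006 (0.01 over all genes), with 17 of 34 higher. High against low then called Bard1 (-0.68, adjusted p = 0.0016) and Fancb (-0.82, adjusted p = 0.00307), against 1.37% of all genes. Mouse 18 was singled out from these same values, and its Bard1 and Fancb levels were the highest of its group. Leaving it out had to widen both falls, so these calls are not separate evidence.

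Genes of dividing cells followed the same order of doses. Of 12 such genes 8, 6 and 0 were called higher from the low to the high dose, with medians of 0.88, 0.61 and 0.20. Mki67, which marks cycling cells, had -4.37, -4.45, -4.57, -3.94 and -4.34 in vehicle, -2.06, -2.51, -2.34 and -1.91 at the low dose, -2.33, -2.50, -2.74, -2.86 and -2.98 in medium-dose lungs and -4.09, -4.21, -3.05, -3.34 and -3.86 at the high dose. Its low- and medium-dose mice lay above all vehicle and high-dose mice and overlapped each other, and its change was 2.13 ± 0.20 (adjusted p = 7.63e-06) at the low and 0.62 ± 0.19 (adjusted p = 0.0557) at the high dose. The mean level of the 12 genes was -3.28 ± 0.18 (SD, n = 5) in vehicle, -2.26 ± 0.09 (n = 4) in low-dose, -2.56 ± 0.14 (n = 5) in medium-dose and -3.13 ± 0.31 (n = 5) in high-dose lungs. Mouse 18 was the highest of the high-dose group, at -2.67. The part of dividing cells in the Bard1, Brca2 and Exo1 values was not tested.

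The p53 response rose with dose instead. Of 12 target genes 7, 8 and 10 were called higher at the low, medium and high dose, with medians of 0.71, 0.89 and 1.38, and 10 for the trend. Cdkn1a, the p53 target that stops the cell cycle, rose in every exposed mouse above the vehicle mice and changed by 1.43 ± 0.22 (adjusted p = 0.00182), 1.64 ± 0.21 (adjusted p = 0.000283) and 2.66 ± 0.21 (adjusted p = 1.34e-07). Mouse 18 had the lowest mean level of the 12 genes in the high-dose group, at 0.58. Over 10 leukocyte genes the median change was 0.16, 0.32 and 0.14. Their part in the member values was not tested.

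Of 59 other genes of the pathway, some were called higher at each dose and none was called lower. Timeless, a replication fork protection factor, was called at each dose, with 0.65 ± 0.11, 0.70 ± 0.10 and 0.90 ± 0.10. Topbp1, which activates ATR, was called at the low dose (0.60 ± 0.11, adjusted p = 0.00523). Wee1, the kinase that restrains entry into mitosis, was called at the high dose (0.71 ± 0.20, adjusted p = 0.0334). The medians of the 59 were 0.12, 0.08 and 0.05, close to those of the 34 genes.

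In liver no member was called at any dose over all 20 arrays, with 0%, 0% and 0.00999% of all genes called at the 3 doses in ascending order and 0.02% for the trend. The members' median change was 0.33 at the high dose (0.03 over all genes). It was -0.31 when arrays were centred on their median, which moved the median of all genes to -0.36, and 0.08 with the slide as a block. The single mice show the slide. Bard1 was at -2.56, -2.52, -2.46, -2.46 and -0.35 in vehicle and at -2.29, -1.61, -0.44, -0.55 and -0.40 in high-dose livers. The values of -0.35, -0.44, -0.55 and -0.40 all come from the third slide, which held 1 vehicle and 3 high-dose arrays. The fitted change of 1.01 ± 0.61 (adjusted p = 0.693) thus sets groups with unequal numbers of arrays on that slide against each other.

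**Figure D4:**
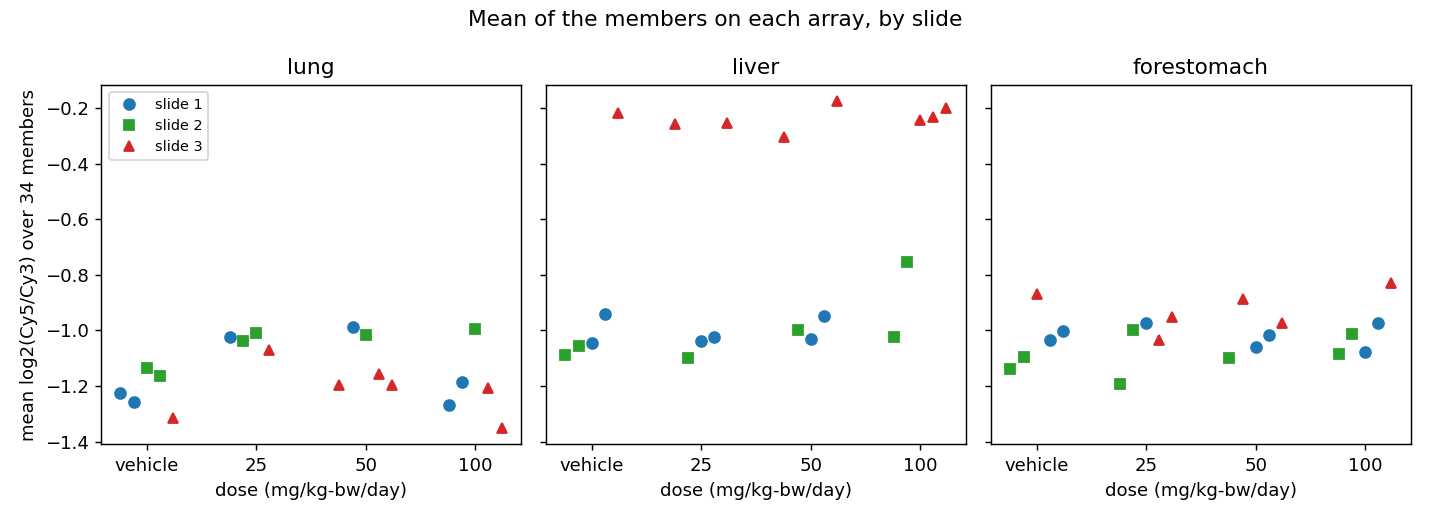
Mean level, log2(sample/reference), of the 34 genes on each array, by tissue, dose group and slide. The 8 arrays of the third liver slide lie between -0.302 and -0.175, and the other liver arrays between -1.098 and -0.753.

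Only Fancl and Fance were well above background often enough in liver to be named by the size of their change. FANCL is the ubiquitin ligase of the core complex. Fancl was at -0.16, 0.74, 0.62, 0.95 and 0.22 in vehicle and at 0.77, 0.45, -0.10, -0.11 and 0.08 in high-dose livers, which overlapped (-0.25 ± 0.23, adjusted p = 0.728). Fance was at -0.77, -0.94, -0.99, -1.03 and -0.43 and at -0.95, -0.96, -0.52, -0.56 and -0.50, which also overlapped (0.13 ± 0.16, adjusted p = 0.777). Without the third slide these changes were 0.07 ± 0.24 and -0.03 ± 0.10.

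Leaving out that slide left 4 vehicle, 3 low-, 3 medium- and 2 high-dose livers, and again no member was called at any dose or for the trend. Several members were rarely well above background on these arrays too, as given above. The background then was 0%, 0.764% and 1.43% in ascending order of dose, and 1.78% for the trend. The members' medians were -0.02, 0.04 and 0.16, with 13, 24 and 24 of 34 higher. Of all 20018 genes 10529, 10805 and 10458 were higher. Bard1 changed by 0.55 ± 0.14 at the high dose (adjusted p = 0.0716) and Rad51d by 0.52 (adjusted p = 0.0974). With 2 high-dose mice left, 1 mouse weighs heavily: mouse 17 had the highest mean level of the 34 genes on these 12 arrays (-0.753), and Brca2 stood at -1.50 in it, against -2.45 to -1.90 on the other 11. Among dividing cell genes 5 of 12 were called higher at the high dose (median 0.98), among p53 targets 6 of 12 (median 0.70), and Cdkn1a changed by 1.74 (adjusted p = 0.000148). Their part in the member values was not tested.

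In forestomach, the tissue the gavaged dose meets first, no member was called at any dose, against 0%, 0% and 0.15% of all genes in ascending order of dose and 0.13% for the trend. The members' medians were -0.01, 0.03 and 0.01, and that at the high dose was 0.22 when arrays were centred on their median, where the median of all genes shifted to 0.15. An unadjusted p under 0.05 was reached by 3, 1 and 5 members (8.82, 2.94 and 14.7%), against 4.45, 6.59 and 10.1% of all genes. Nbn, the subunit that brings ATM to broken ends, was at 0.19, 0.23, 0.39, 0.24 and 0.42 in vehicle and at -0.15, 0.02, -0.10, -0.11 and 0.20 at the high dose. At the high dose 4 of 5 were below the lowest vehicle mouse, and the change was -0.32 ± 0.10 (adjusted p = 0.271). Atr was at -1.52, -1.62, -1.45, -1.56 and -1.78 in vehicle and at -1.41, -1.28, -1.34, -1.41 and -1.09 at the high dose, so that all 5 lay above all vehicle mice. The change was 0.28 ± 0.08 (adjusted p = 0.231).

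Rad51d in forestomach was at 0.12, -0.04, -0.10, 0.10 and 0.54 in vehicle and at 0.41, 0.40, 0.50, 0.32 and 0.54 at the high dose, which overlapped through 1 vehicle mouse (0.31 ± 0.13, adjusted p = 0.524). A second Rad51d probe, well above background on all 20 forestomach arrays, changed by 0.04 ± 0.09 (adjusted p = 0.935). Chek2 and Atm overlapped between the groups as well. The 95% interval at the high dose lay within 1.5-fold for 33 of 34 genes, all but Rad51d, against 81.4% of all genes. Neither the 12 dividing cell genes nor the 12 p53 targets held a call at any dose, and the high-dose medians were -0.02 and 0.19. Cdkn1a changed by 0.06 at the high dose.

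The high-dose change was then compared between tissues in 1 fit for each pair of tissues. No member differed, against 0.564% of all genes for lung and liver, 1.28% for lung and forestomach and 0.0599% for liver and forestomach. The lowest adjusted p among the members was 0.255, 0.198 and 0.722 in the same order. The comparisons with liver used all liver arrays, and the liver slide with low signal held more high-dose than vehicle arrays. They cannot separate dose from slide in liver, so the absence of a call says little there. Values without that slide are not given for these comparisons. With the slide as a fixed block, Fancb differed between lung and liver by -0.73 (adjusted p = 0.023), lower in lung. The share of all genes called at that setting was not counted. Such a block removes a shift of a slide, not the narrower spread of the third liver slide. Fancb was well above background on 0 arrays of that slide, so a change in liver could hardly be seen there. Without the block the high-dose change of Fancb in lung minus that in forestomach was -0.63 ± 0.22 (adjusted p = 0.198). The fall in lung is thus not shown to differ from the change of -0.09 ± 0.15 in forestomach.

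Levels in vehicle mice differed between tissues for some members, at about the share of other genes or below. Lung and liver differed in 10 of 34, against 37.2% of all genes. Without the third liver slide the count was also 10, against 41.2%, and 7 of these were shared. The count was 6 when mouse 1 or mouse 5 was left out, where the share of all genes was not counted. Lung and forestomach differed in 5, against 31.9%. Liver and forestomach differed in 5, against 30.9%, and in 8 without the third slide, against 36.1%. Each slide held a single tissue, so slide and tissue are separated only by the spread between slides of a tissue.

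**Figure D5:**
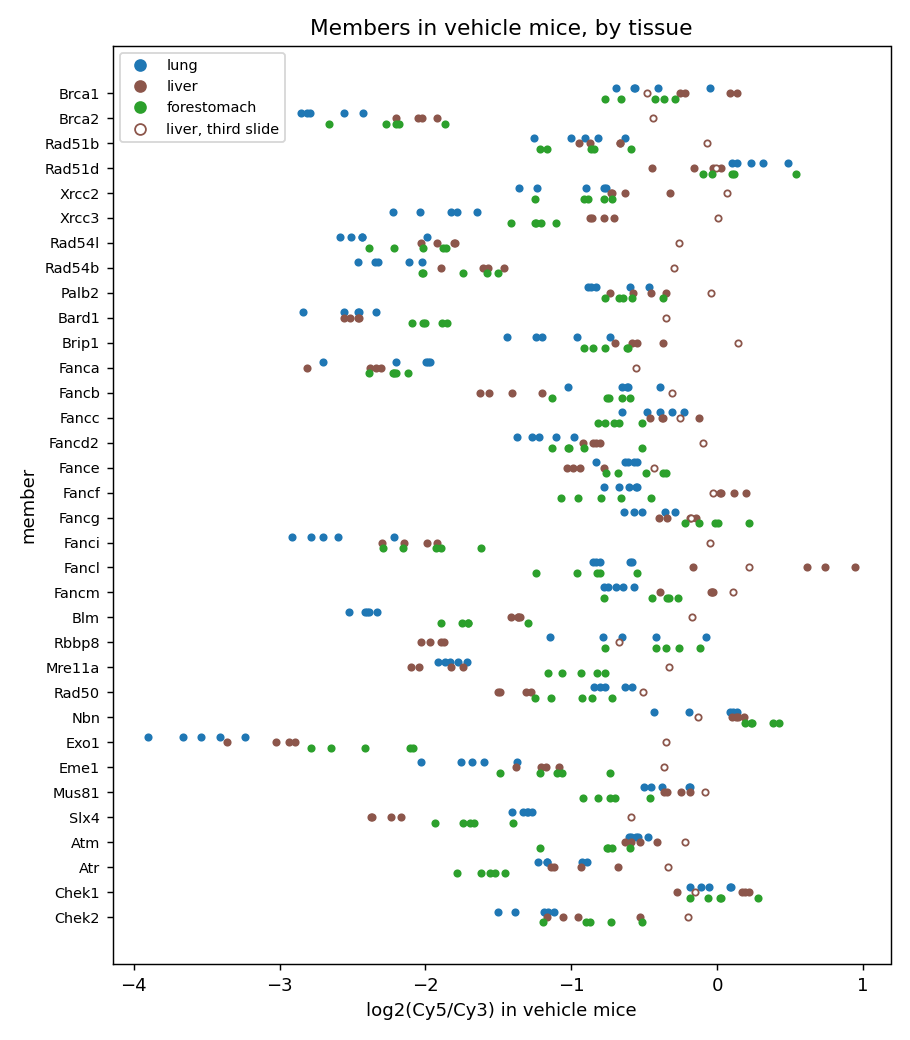
Levels of the 34 genes in vehicle mice, log2(sample/reference), by tissue. Points are mice, and the open point of each gene is on the third liver slide. With the open point set aside, Fancl lies higher in liver and Rbbp8 lower in liver than in the other tissues, and Exo1 and Mre11a lie highest in forestomach. The open point lies above all forestomach mice for Exo1 (-0.347) and Mre11a (-0.328).

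By size, the largest called differences of liver from lung and from forestomach, without the third slide, were those of Fancl and Rbbp8. Fancl averaged 0.54 in liver without the third slide, against -0.73 in lung and -0.87 in forestomach. The level in lung minus that in liver was -1.27 ± 0.15 (adjusted p = 2.02e-08), and liver exceeded forestomach by 1.41 ± 0.16 (adjusted p = 1.96e-08). Rbbp8, which codes for CtIP, the protein that starts end resection, averaged -1.94 in liver, -0.61 in lung and -0.38 in forestomach. Lung exceeded liver by 1.33 ± 0.14 (adjusted p = 2.67e-09), and the level in liver minus that in forestomach was -1.56 ± 0.12 (adjusted p = 5.53e-12). The order of lung and forestomach was not called for either gene.

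Forestomach exceeded lung in each of the 5 members called between them. Exo1 averaged -2.41 in forestomach and -3.55 in lung, a lung minus forestomach difference of -1.14 ± 0.14 (adjusted p = 2.97e-08). Mre11a, the nuclease of the complex with RAD50 and NBN, averaged -0.95 and -1.82, a difference of -0.87 ± 0.10 (adjusted p = 1.76e-09). Blm, the helicase that dissolves joined molecules, Fanci and Xrcc3 differed by -0.74, -0.67 and -0.66. Liver exceeded lung, with and without the third slide, in Blm, Brca2, Fancf, Fancl, Rad54b and Xrcc3. Rad54b was well above background in Cy5 on only 10 lung and 2 liver arrays, so its difference says little about the transcript.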

How the data were processed

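Agilent SurePrint G3 Mouse arrays of 59 samples were analysed. Per the file headers, the deposited scanner files hold spot intensity in Cy5 and Cy3, extracted by the authors with Feature Extraction 10.7.3.1 and not normalized. Log2 ratios processed by the authors were used as an alternative (r of 0.967 to 0.999 with the values used here). Median intensities without background correction, as in the study's methods, became log2(Cy5/Cy3) and were normalized by loess within arrays (limma 3.58.1, R 4.3.3). Controls and non-uniform spots were left out and spots averaged to 55681 probes. The study's own test could not be run with the tools at hand.

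Probes were named by accession through RefSeq (GRCm38.p6). A gene's brightest Cy5 probe over all arrays represents it in every tissue, and 10 members have several. Dose groups of a tissue entered 1 limma fit with Benjamini-Hochberg adjustment over all probes, in code tested on simulated data. Motifs were searched with Python 3.11.15. The members and lists were chosen with earlier results of these data known. Named members were those called, the 3 with the largest high-dose change per tissue among those well above background, and Brca1, Chek1, Chek2, Atm and Atr. Alternatives were median centring, normexp background correction (offset 50), the authors' values, a detection filter, other probe rules, no minimum fold, slide or mouse as a block, and each mouse left out. Some results for genes outside the member list are not reported here.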

Additional observations from a re-analysis of the deposited data

Results flagged for a closer look

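Single mice were looked for that lay apart from their group by Dixon's criterion at 95%, in 156 groups of 4 or 5 mice, and 10 values did. Chance alone gives about 7.8 of 156. In liver, vehicle mouse 5, the only vehicle array on the third slide, lay apart for Bard1 (-0.35), Rad50 (-0.51), Nbn (-0.132) and the mean level of the 34 genes (-0.217, others -1.09 to -0.94). In lung, high-dose mouse 18 lay apart for Bard1 (-1.89, others -2.64 to -2.43), vehicle mouse 2 for Fance (-0.829) and low-dose mouse 8 for Brca1 (-0.384). In forestomach, high-dose mouse 16 (-1.26) and low-dose mouse 7 (-0.67) lay apart for Chek2, and vehicle mouse 2 for Atm (-1.21). Their causes were not tested.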

How the results depend on the processing

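Results for which another setting moved the value are given here, and no direction of a called value reversed. For most of these settings the share of all genes called was not counted. The counts below therefore show how the members' calls moved, and do not set the members apart from other genes. Centring arrays on their median moved the high-dose median of all genes to 0.20 (lung), -0.36 (liver) and 0.15 (forestomach). It gave members' medians of 0.29, -0.31 and 0.22 there, 2 calls in lung at the high dose (Rad50 0.64 and Slx4 0.63, both higher), 0 for the lung trend, 0 for lung high against low, and 4, 3 and 1 differing vehicle levels for lung and liver, lung and forestomach, and liver and forestomach. Normexp called 2 members at the low dose in lung (Exo1 added, 0.65). Without a minimum fold, 1 was called at the medium dose in lung (Exo1), and 21 and 12 vehicle levels differed from forestomach in lung and liver. With the slide as a block, 1 was called at the medium dose in lung (Exo1, adjusted p = 0.00039) and 1 high-dose effect differed between lung and liver (Fancb). Only 2 members passed the detection filter in liver, with a median of -0.061. Without the third liver slide, 8 vehicle levels differed between liver and forestomach. Omitting single mice gave 0 to 2 calls at the low and 0 to 1 at the medium dose in lung, 0 to 2 for lung high against low, a lung high-dose median of 0.000597 (without mouse 18) to 0.098, and 6 to 11 differing vehicle levels for lung and liver. Over these omissions Fancb at the high dose in lung stayed between -0.84 and -0.62 and was called each time. The mouse, the same animal in each tissue, as a replicate block gave 8, 5 and 5 differing vehicle levels and 0 differing effects and changed no other call. Deviations of a mouse in a pair of tissues correlated with median r of -0.039, 0.035 and 0.039. Low signal limits Brca1, Chek1, Fancd2 and Palb2 in every tissue, and nearly all members on the third liver slide. It also limits Brip1 in every tissue, Eme1 in lung and liver, and Rad54l, Rad54b, Fanci, Exo1, Chek2 and Fancg in liver.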
